A study of Mus musculus with 2 samples.

Results

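Imprinted growth regulators are genes read mainly from the copy inherited from one parent, whose products raise or restrain the growth of the embryo. The 10 described here are Igf2, H19, Igf2r, Grb10, Cdkn1c, Plagl1, Dlk1, Meg3, Mest and Peg3, chosen by name, with every transcript that the deposited tables list under those symbols. They make up 10 of 30723 genes and 37 of 59055 transcripts. RNA was measured in the mandibular prominence, the facial swelling that forms the lower jaw, in 1 Kif3a mutant library and 1 control library. In the mutant embryos (Kif3a f/f ; Wnt1-Cre) the gene for a subunit of the kinesin motor that builds cilia was floxed, and Cre was driven by Wnt1 in the neural crest and its descendants, so other cells of the prominence keep the gene. The control embryos are labelled only as control, with no Cre or Kif3a alleles given. Tissue of 10 embryos of a mixed CD1 background was pooled for each total RNA library. By the labels the mutant and the control were both E11.5. The table names, however, say E11 for the mutant and E11.5 for the control and point to separate sequencing runs, so stage and run cannot be told apart from genotype. With 1 library per group there is no test and no replicate check, and every difference below is a difference between these 2 libraries.

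Imprinted genes lie in clusters, where a region methylated in only one parent's germ line sets which copy is read. Igf2 encodes a growth factor read from the paternal copy. Its neighbour H19, a noncoding RNA, is read from the maternal copy and shares enhancers with it. The receptor Igf2r carries IGF2 to the lysosome, Grb10 restrains signalling from insulin and IGF receptors, and Cdkn1c (p57) blocks the cell cycle. Plagl1 is a zinc finger factor known to act on other imprinted genes. The libraries do not separate the parental copies, so no value below is a measure of imprinting itself.

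The H19 and Igf2 loci each host a microRNA, and the mature sequences are shown because the abundant RNA of each locus is also the primary transcript or host of the microRNA. They come from RefSeq on GRCm38.p6, with the seed, bases 2 to 8, in capitals.
miR-675-5p, in H19: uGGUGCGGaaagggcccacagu
miR-675-3p, in H19: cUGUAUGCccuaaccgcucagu
miR-483-5p, in Igf2: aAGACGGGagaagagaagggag
miR-483-3p, in Igf2: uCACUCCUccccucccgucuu
No 2 of these 4 share a seed. Total RNA libraries of this kind do not measure mature microRNAs. The tables list 4 microRNA hairpins within the members' loci (Mir483, Mir770, Mir1906-1 and Mir335), all at 0 FPKM in both libraries.

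Promoter windows from RefSeq (GRCm38.p6, 250 bases before to 50 after a start) were found for 8 of the 10 genes, in 15 windows, but not for H19 and Cdkn1c. Those of Igf2 and Meg3 are shown because transcripts of these genes differed in their mutant over control ratio. In capitals are the GC box (GGGCGG, or CCGCCC on the other strand) in the Igf2 windows and the TATA box (TATAAA, or TTTATA on the other strand) in the Meg3 window. The start of the 4038-base Igf2 transcript lies in chr7:142658755-142659054, minus strand, with 24 CpG, and that of the 3691-base transcript 15 bases from the start in chr7:142657447-142657746, minus strand, with 7 CpG. The Meg3 window is chr12:109540746-109541045, plus strand.
Igf2, 4038-base transcript: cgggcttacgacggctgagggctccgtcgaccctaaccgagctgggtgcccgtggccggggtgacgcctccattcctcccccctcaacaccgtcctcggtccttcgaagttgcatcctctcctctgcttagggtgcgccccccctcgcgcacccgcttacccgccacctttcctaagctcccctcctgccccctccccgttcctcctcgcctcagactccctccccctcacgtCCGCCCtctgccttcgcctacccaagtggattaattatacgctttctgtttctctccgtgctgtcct
Igf2, 3691-base transcript: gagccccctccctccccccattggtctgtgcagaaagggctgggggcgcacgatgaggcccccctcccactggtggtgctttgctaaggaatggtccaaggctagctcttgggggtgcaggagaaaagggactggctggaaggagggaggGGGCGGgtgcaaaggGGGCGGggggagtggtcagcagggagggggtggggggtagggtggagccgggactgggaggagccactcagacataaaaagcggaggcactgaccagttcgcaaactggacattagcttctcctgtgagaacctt
Meg3, 1503-base transcript: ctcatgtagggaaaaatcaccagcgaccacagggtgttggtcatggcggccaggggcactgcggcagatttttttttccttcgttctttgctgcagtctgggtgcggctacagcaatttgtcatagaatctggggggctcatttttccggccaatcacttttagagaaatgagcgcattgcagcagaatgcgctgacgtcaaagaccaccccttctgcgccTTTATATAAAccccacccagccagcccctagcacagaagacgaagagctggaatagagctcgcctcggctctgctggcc
The upstream Igf2 window held 1 GC box and the downstream one 2. The Meg3 window held 2 overlapping TATA box matches, with TATAAA 25 bases before the start. Of 32851 windows, 35.7% held a GC box and 13.6% a TATA box on either strand. The GLI consensus GACCACCCA, the site of the Hedgehog pathway's transcription factors, was in none of the 15 windows and in 0.253% of all windows.

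Kif3a, the deleted gene, was at 5.39 FPKM in the mutant and 11.46 FPKM in the control, where FPKM is fragments scaled to transcript length and to all mapped fragments. The ratio was 0.471, with a 95% interval of 0.431 to 0.514. Intervals here are exact Clopper-Pearson binomial intervals on approximate fragment numbers, rescaled to the FPKM ratio, and cover counting error only. The ratio of summed FPKM can differ from that of the fragments, and the intervals do not cover this. Such a gap also occurs for genes with 1 transcript. Igf2r, for example, had about 4963 fragments in the mutant and 3648 in the control, a larger difference than its FPKM ratio of 1.25. The depth was about 24500000 fragments in the mutant and 24700000 in the control. Ratios were compared over the 12259 genes whose FPKM averaged at least 1, and all 10 members passed this filter. The median log2 ratio of mutant over control over the 12259 genes, computed with a pseudocount of 1, was -0.13, so members are also given relative to the median gene. In bulk tissue, fewer cells of a type and less RNA per cell cannot be told apart.

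Plagl1, Cdkn1c, Dlk1 and Igf2 were lower in the mutant, by 1.89-, 1.67-, 1.55- and 1.47-fold. Meg3, Igf2r, Peg3 and the row named H19 were higher by at most 1.25-fold, and Mest and Grb10 lay close to the median gene. Of the 10 members, 4 had a log2 ratio above 0 and 6 below, with a median of -0.11, against -0.13 for all compared genes. Relative to the median gene, 5 were lower and 5 higher. These counts take H19 by the row of that name. Summed with a far more abundant row on its locus, described below, H19 lay at -0.59 relative to the median gene. It then belonged to the lower members, and the median of the 10 was -0.37. At 1.5-fold or more on the log2 scale with the pseudocount, 3 members were lower (Plagl1, Cdkn1c and Dlk1), against 5.57% of all genes, and 0 were higher, against 2.76%. After centring on the median gene or scaling to the 75th percentile 2 members were 1.5-fold lower, as Dlk1, at -0.49 under both, no longer passed. With the most abundant transcript alone 2 were also lower, as Plagl1, at -0.50, did not pass. With the length trend removed 4 were lower, as Igf2, at -0.63, also passed. With H19 summed with the row on its locus 4 were lower too, as H19 then stood at -0.72. At 2-fold or more, 0 members were lower, against 1.36% of all genes, and 0 higher, against 0.767%. Over all genes, 338 were 1.5-fold higher and 683 lower on the values as deposited, but 558 higher and 396 lower after centring on the median gene, and 3007 higher and 159 lower when both libraries were scaled to a common sum of FPKM. The last scaling shifts the median gene to 0.39, because the summed FPKM was 474704 in the mutant and 713934 in the control. A large part of that gap came from 1 entry, AK204943, whose most abundant transcript has 75 bases. It was at 20109 FPKM in the mutant and 175131 FPKM in the control.

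**Figure D1:**
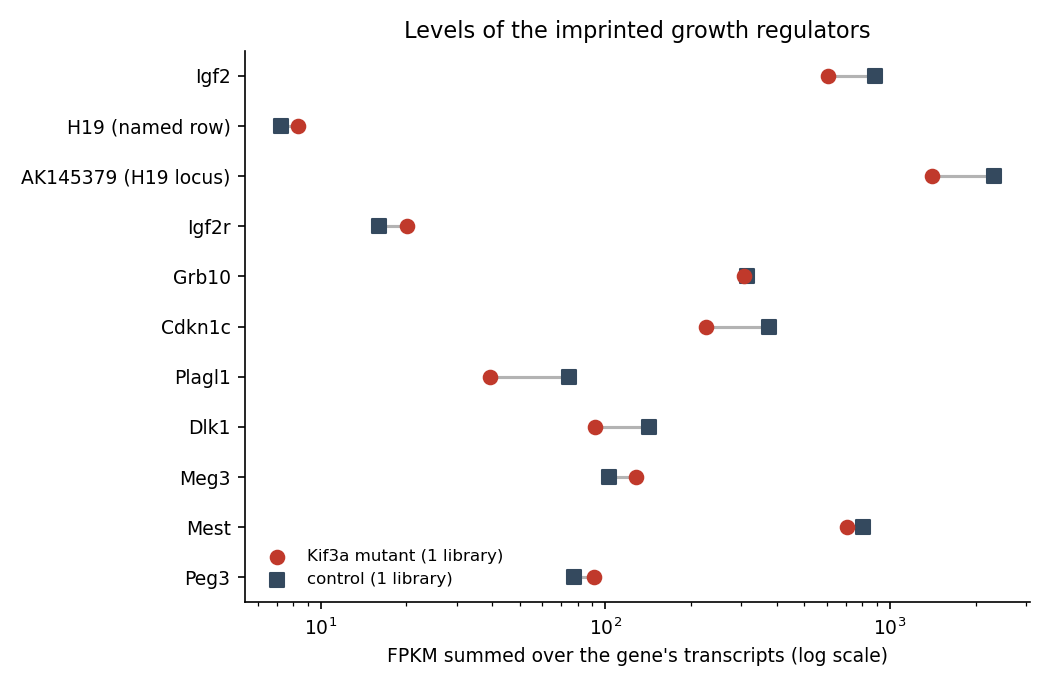
FPKM summed over the transcripts of each gene, on a log axis, in the Kif3a mutant library (circles) and the control library (squares), 1 library each. The largest gaps to the left of the control are those of Plagl1 (39.2 against 74.3 FPKM), Cdkn1c (226 against 377) and the row on the H19 locus (1407 against 2319.8).

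Igf2 (chr7:142650768-142661035 on GRCm38, minus strand) was at 603 FPKM in the mutant and 886 FPKM in the control, a ratio of 0.681 (95% interval 0.674 to 0.688). It ranked 121 among all genes by level in the mutant and 102 in the control. Its log2 ratio of -0.55 exceeded that of only 6.48% of compared genes, and it lay 0.42 below the median gene. It stayed below the median gene under each of 11 further settings, although scaling to a common FPKM sum put its own log2 ratio at 0.03. Centring cannot change a position relative to the median gene, and the scalings shift all genes nearly alike. These settings are thus not independent checks. The antisense Igf2as, which overlaps the upstream end of Igf2, was at 8.50 FPKM in the mutant and 12.0 FPKM in the control. The strandedness of the libraries is not given in the sources used here, so reads from such overlapping pairs cannot be told apart.

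The 3 transcripts of Igf2 did not share one ratio. The 4038-base form was at 315 FPKM in the mutant and 442 FPKM in the control, 1.40-fold lower (1.38 to 1.42). The 3691-base form, from the more downstream start shown above, was at 264 FPKM in the mutant and 424 FPKM in the control, 1.61-fold lower (1.58 to 1.63). The 3701-base form, with the most upstream start, was minor and higher in the mutant, at 24.4 FPKM against 20.8 FPKM in the control. FPKM of single transcripts are estimates of a model that divides shared fragments, and the intervals do not cover the error of that division.

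The table names only 1 row H19 (chr7:142575532-142578146, minus strand), and its length of 2615 bases equals its whole span, with no intron removed. That row was at 8.29 FPKM in the mutant and 7.25 FPKM in the control, a ratio of 1.14 (1.01 to 1.29) on 590 and 479 fragments. Almost all reads of the locus stood instead in a row named AK145379, at chr7:142575531-142578114. Its 2255 bases compare with 2286 for the 5-exon H19 transcript in GENCODE, and their ends lie 2 and 29 bases apart. AK145379 was at 1407 FPKM in the mutant and 2319.8 FPKM in the control, 1.65-fold lower (1.63 to 1.66). By level it ranked 33 in the mutant and 16 in the control. The row named H19 and the row on its locus thus pointed in opposite directions, and the abundant one was lower in the mutant, as Igf2 was. With both rows summed as H19, the log2 ratio was -0.72 and the median of the 10 members -0.37.

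Igf2r, which clears IGF2 (chr17:12682406-12769706, minus strand), was at 20.05 FPKM in the mutant and 16.03 FPKM in the control, a ratio of 1.25 (1.198 to 1.305). It lay 0.44 above the median gene. Genes of like length, within 1.25-fold of its 8929 bases, had a median log2 ratio of 0.22 against its own 0.31, and 64.9% of them were lower than Igf2r. Airn, the noncoding RNA read from the paternal copy across Igf2r, was at 9.75 FPKM in the mutant and 7.10 FPKM in the control. Its transcripts that overlap Igf2r differed in direction. The 1176-base one was at 6.30 FPKM in the mutant and 3.13 FPKM in the control, the 413-base one at 1.98 FPKM and 3.11 FPKM.

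Grb10, the adaptor that restrains IGF and insulin receptors (chr11:11930499-12037420, minus strand), was at 307 FPKM in the mutant and 315 FPKM in the control. Its ratio was 0.974 (0.961 to 0.987), and its sign relative to the median gene turned with 2 of 11 further settings. Its approximate fragments, 42802 in the mutant and 40636 in the control, differed in the other direction, so the sign of this small difference is not settled. Its 5089-base transcript held 95.9% of its FPKM in the mutant and 97.4% in the control. A minor 850-base transcript was at 6.22 FPKM in the mutant and 0.119 FPKM in the control, on about 148 and 3 fragments, a ratio of 52.1 (17.5 to 256).

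Cdkn1c, the cell cycle inhibitor p57 (chr7:143458339-143461050, minus strand), was at 226 FPKM in the mutant and 377 FPKM in the control, 1.67-fold lower (1.63 to 1.71). Only 2.94% of compared genes had a lower log2 ratio than its -0.74. All 3 of its transcripts were lower, by 1.61- to 1.69-fold, and the share of the 1904-base form was 72.3% in the mutant and 72.5% in the control. Of the other CDK inhibitors, 4 of 6 passed the filter, with a median log2 ratio of -0.32. Cdkn1a (p21) was at 6.98 FPKM in the mutant and 4.27 FPKM in the control. Cdkn1b (p27), the most abundant of them, was at 19.1 FPKM in the mutant and 22.6 FPKM in the control, Cdkn2c at 1.05 FPKM and 2.78 FPKM, and Cdkn2d at 11.9 FPKM and 16.1 FPKM.

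Plagl1, the zinc finger factor (chr10:13060504-13131695, plus strand), had the lowest ratio of summed FPKM among the 10. It was at 39.2 FPKM in the mutant and 74.3 FPKM in the control, 1.89-fold lower (1.82 to 1.97), and only 1.73% of compared genes had a lower log2 ratio than its -0.90. Among genes of like length that share was 0.392%. Its 5 transcripts over 1 FPKM were all lower in the mutant, to unlike degrees. The main 5261-base form was at 25.1 FPKM in the mutant and 35.8 FPKM in the control, 1.43-fold lower (1.37 to 1.49). The 2663-base form was at 1.57 FPKM in the mutant and 14.0 FPKM in the control, 8.92-fold lower (7.35 to 10.9), with about 116 and 936 fragments. It held 4.01% of the gene's FPKM in the mutant and 18.9% in the control. With the most abundant transcript alone, Plagl1 lay 0.35 below the median gene, against 0.77 for the sum. Cdkn1c, at -0.59, and Dlk1, at -0.48, were then lower than Plagl1. In approximate fragments Plagl1 (4185 in the mutant, 6499 in the control) and Cdkn1c (10490 and 16286) had nearly the same ratio. The rank of Plagl1 thus depends on how fragments were divided among its transcripts.

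Of the members' 37 transcripts, 29 averaged at least 1 FPKM, with a median log2 ratio of -0.45, against -0.12 for all 18494 such transcripts. Of these 29, 9 were above 0 and 20 below, with several from the same gene. On the log2 scale 1 was at least 2-fold higher (the 850-base form of Grb10), against 3.15% of all transcripts. Likewise 1 was at least 2-fold lower (the 2663-base form of Plagl1), against 3.62% of all transcripts.

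**Figure D2:**
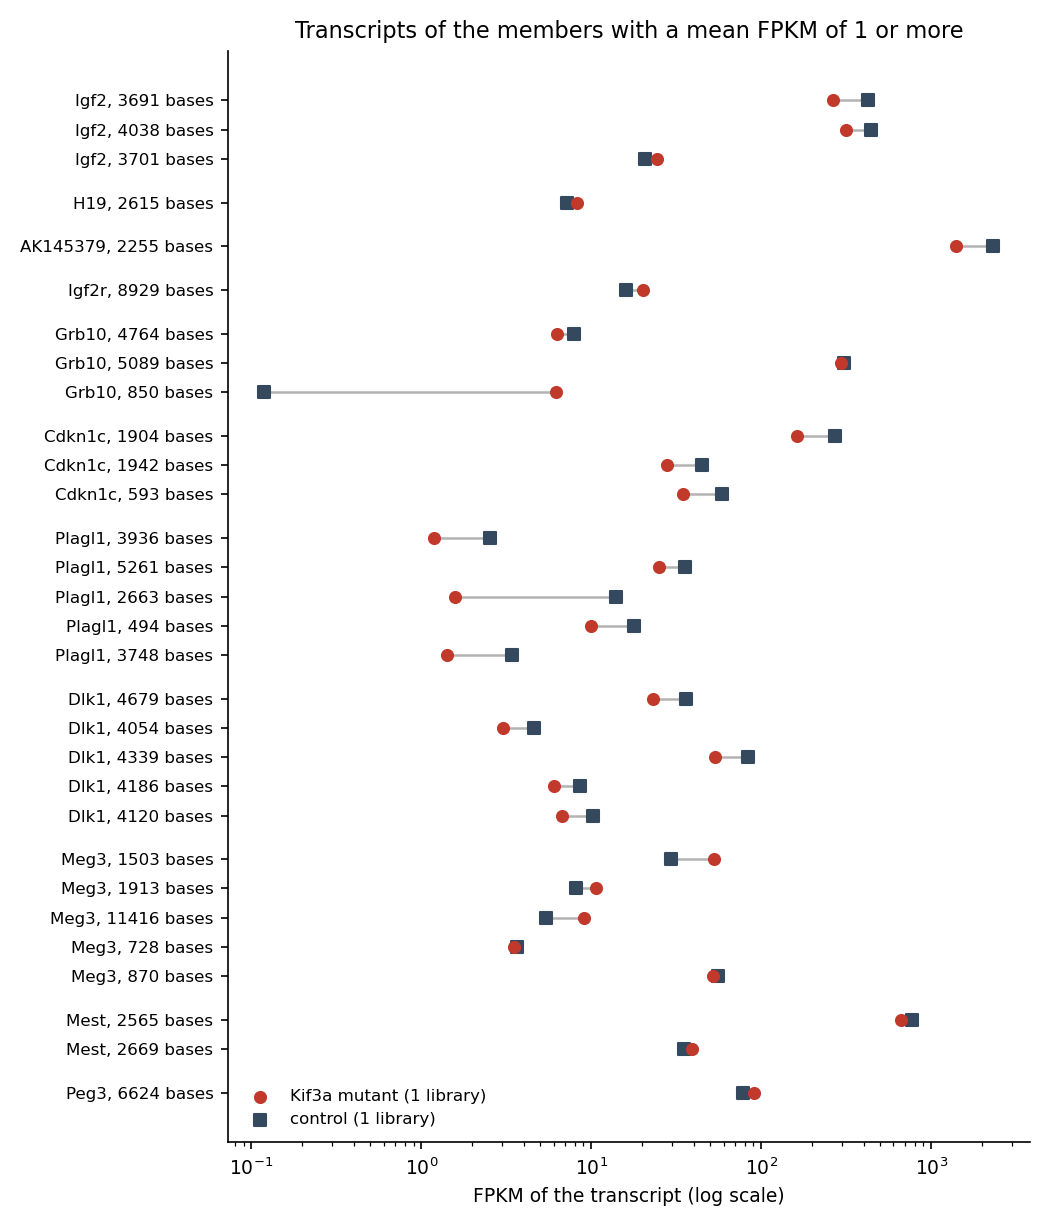
FPKM of each transcript with a mean of 1 or more, on a log axis, in the Kif3a mutant library (circles) and the control library (squares), grouped by gene and named by length in bases. The forms of Dlk1 and Cdkn1c all lie to the left in the mutant, whereas those of Igf2 and Meg3 divide. The widest gaps are the 850-base form of Grb10 (6.22 against 0.119 FPKM) and the 2663-base form of Plagl1 (1.57 against 14.0 FPKM).

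Dlk1 and Meg3 lie in one imprinted cluster and differed in opposite directions. Dlk1, a membrane protein related to Notch ligands and read from the paternal copy (chr12:109452823-109463336, plus strand), was at 92.2 FPKM in the mutant and 143 FPKM in the control, 1.55-fold lower (1.51 to 1.59). All 5 of its transcripts were lower, by 1.42- to 1.56-fold, and the 4339-base form held 57.9% of its FPKM in the mutant and 58.3% in the control. Meg3, a noncoding RNA read from the maternal copy (chr12:109540996-109571729, plus strand), was at 128 FPKM in the mutant and 103 FPKM in the control, a ratio of 1.25 (1.201 to 1.298). Its fragments, about 6672 in the mutant and 4235 in the control, differed by more than its summed FPKM.

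The Meg3 difference did not run through all its transcripts. The 1503-base form, which starts in the TATA box window shown above, was at 52.5 FPKM in the mutant and 29.6 FPKM in the control, a ratio of 1.77 (1.65 to 1.91). The 11416-base form was at 9.10 FPKM in the mutant and 5.44 FPKM in the control. The 870-base form, from a later start, was at 52.2 FPKM in the mutant and 55.6 FPKM in the control, a ratio of 0.938 (0.865 to 1.02). The 1503-base form held 40.9% of Meg3 FPKM in the mutant and 28.8% in the control. With the 870-base form alone, Meg3 had a log2 ratio of -0.09, which was 0.06 above the median gene.

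Downstream of Meg3 the noncoding RNAs Rian and Mirg, also read from the maternal copy, did not show its difference. Rian was at 111 FPKM in the mutant and 120.1 FPKM in the control, and Mirg at 6.22 FPKM in the mutant and 7.52 FPKM in the control. In the region of H19, Igf2 and Cdkn1c, 11 of 18 listed neighbours passed the filter, with a median log2 ratio of -0.30, 1 above 0 and 10 below. After centring on the median gene 3 of these 11 were above it and 8 below. Their median was then -0.17, and -0.004 with the length trend removed. Only Tspan32, a tetraspanin gene at 0.596 FPKM in the mutant and 2.49 FPKM in the control, passed 1.5-fold.

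**Figure D3:**
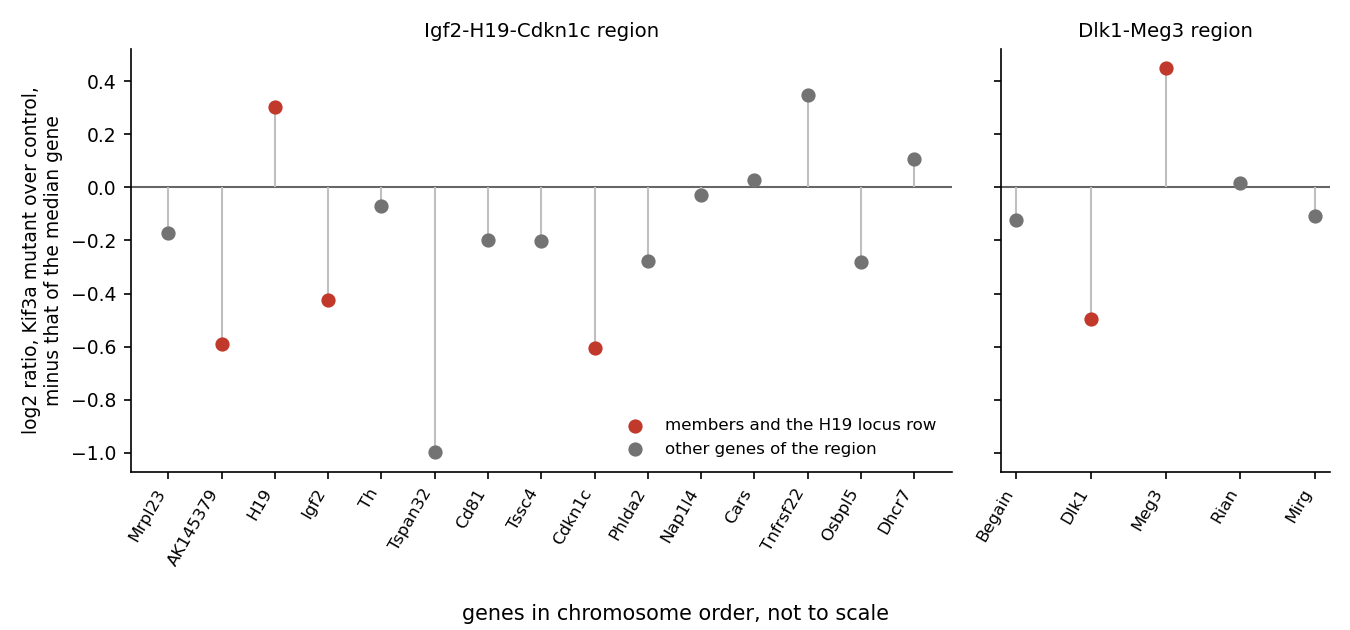
Log2 ratio of mutant over control, minus that of the median gene, for compared genes of the Igf2-H19-Cdkn1c region (left) and the Dlk1-Meg3 region (right), in chromosome order and not to scale. Members and the H19 locus row are red and neighbours grey. AK145379, Igf2, Cdkn1c and Dlk1 lie below 0, at -0.59, -0.42, -0.61 and -0.49, and Meg3 lies above it at 0.45, while most neighbours lie nearer to 0.

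Mest, an enzyme-like protein of the alpha/beta hydrolase fold (chr6:30733506-30748466, plus strand), was at 706 FPKM in the mutant and 805 FPKM in the control, a ratio of 0.877 (0.866 to 0.888). It lay 0.06 below the median gene and within the middle of all genes, with 41.3% of them lower. Its main 2565-base form had a ratio of 0.865 (0.855 to 0.876) and its 2669-base form one of 1.12 (1.06 to 1.18). Peg3, a zinc finger protein (chr7:6705960-6730419, minus strand), was at 91.3 FPKM in the mutant and 77.7 FPKM in the control, a ratio of 1.18 (1.15 to 1.202). Among genes of like length, 76.0% were lower than Peg3. Peg3as, which lies wholly within Peg3, was at 161 FPKM in the mutant and 133 FPKM in the control. Of its neighbours, Usp29 was at 11.0 FPKM in the mutant and 13.9 FPKM in the control, and Zim1 at 7.38 FPKM in the mutant and 8.49 FPKM in the control.

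**Figure D4:**
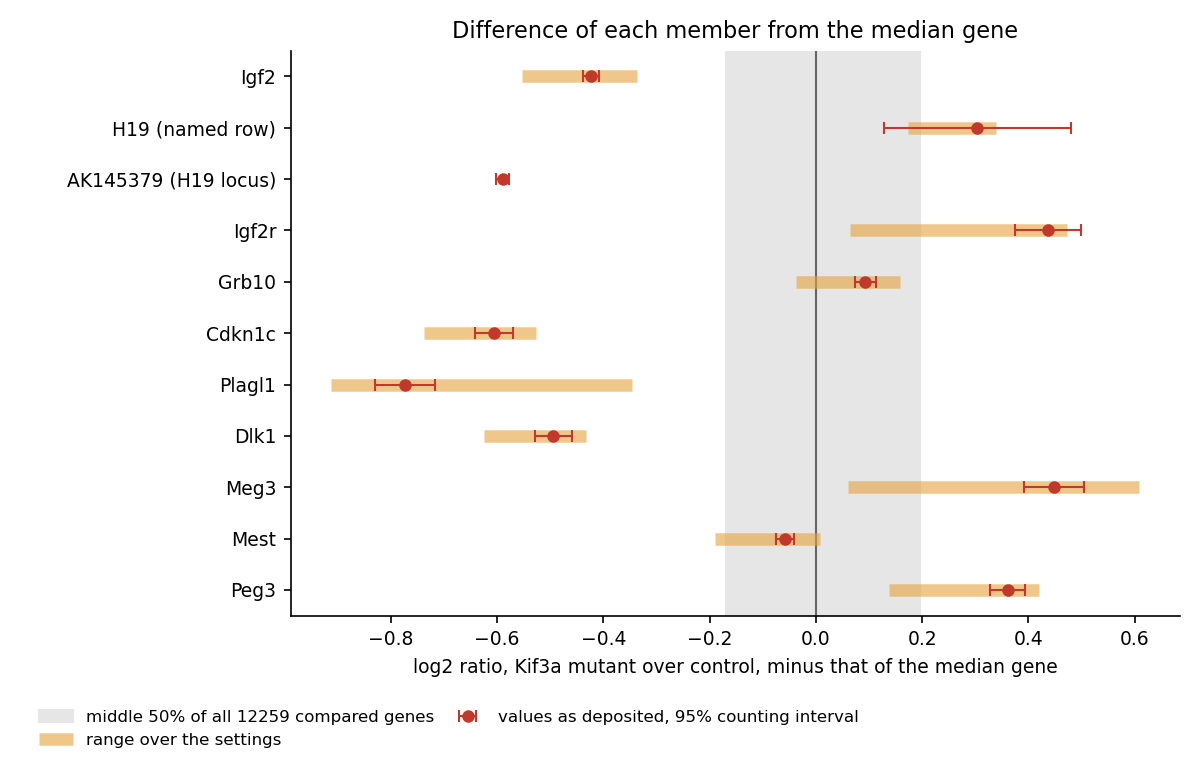
Log2 ratio of mutant over control for each member minus that of the median gene, as deposited (points, with the 95% counting interval), with its range over the main and 11 other settings (orange bars, not drawn for AK145379 and without the sum of H19 and AK145379). The grey band holds the middle 50% of all 12259 compared genes. Igf2, Cdkn1c, Plagl1 and Dlk1 lie left of the band under each setting, and the bars of Mest and Grb10 cross 0.

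The log2 ratio of all compared genes moved with transcript length, with a Spearman rho of 0.407 across genes, which share the 2 libraries and are not independent. Its median was -0.31 at 300 to 1000 bases and 0.31 above 8000 bases. After removal of this trend Igf2r lay 0.06 and Peg3 0.14 above the median gene, against 0.44 and 0.36 before. Meg3, whose most abundant form is short, lay 0.61 above it, against 0.45 before. This value rests on the length of the 870-base form, which was not higher in the mutant (ratio 0.938). The 1503- and 11416-base forms, which were higher, are longer, so 0.61 is no firmer than 0.45. The members that were lower remained so, with Plagl1 at -0.91, Dlk1 at -0.58, Cdkn1c at -0.53 and Igf2 at -0.49 relative to the median gene.

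**Figure D5:**
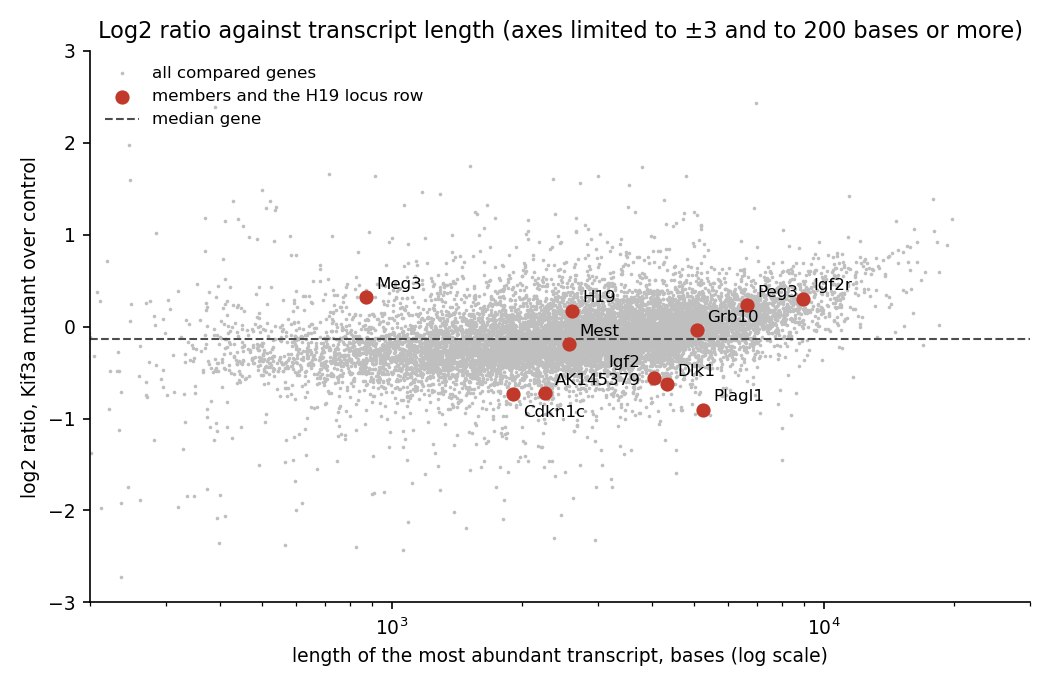
Log2 ratio of mutant over control against the length of the most abundant transcript, on a log axis, for all compared genes (grey) and the members with the H19 locus row (red); the dashed line is the median gene at -0.13. The cloud climbs with length, Igf2r and Peg3 lie within its long end, and Plagl1, Dlk1, Igf2, AK145379 and Cdkn1c lie along its lower edge.

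By the parental copy known to be read, the 5 paternally expressed members (Igf2, Dlk1, Mest, Peg3 and Plagl1) had a median log2 ratio of -0.55, with 4 below the median gene and 1 above. The 5 maternally expressed ones (H19, Igf2r, Meg3, Cdkn1c and Grb10) had a median of 0.17, with 1 below the median gene and 4 above. The H19 of this count is the row of that name, and the median of 0.17 is its own value. With H19 summed with AK145379 the 5 maternally expressed members had a median of -0.04, with 2 below the median gene and 3 above. The list used here for a network of imprinted genes was drawn up for this report and comprises these 10 and 8 others. Those 8 had a median log2 ratio of -0.47, with 2 above 0 and 6 below, and 3 were at least 1.5-fold lower, against 5.57% of all genes. These were Ndn, a protein of the MAGE family, at 73.1 FPKM in the mutant and 137 FPKM in the control, Gnas, the stimulatory G protein subunit, at 602 FPKM and 958 FPKM, and the proteoglycan gene Dcn, at 1.82 FPKM and 3.70 FPKM. Relative to the median gene Gnas lay at -0.54, short of 1.5-fold.

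Genes listed as partners of IGF2 signalling divided in direction. All 10 passed the filter, with a median log2 ratio of 0.05, 5 above 0 and 5 below. Without Mrpl23, a mitochondrial ribosomal protein gene next to H19 that is no signalling partner, the median of the other 9 was 0.21, with 5 above 0 and 4 below. Relative to the median gene the median of these 9 was 0.35, and -0.04 with the length trend removed. Lin28b, an RNA-binding protein that blocks let-7 microRNAs, was at 14.2 FPKM in the mutant and 7.50 FPKM in the control. The receptor Igf1r was at 14.5 FPKM in the mutant and 11.2 FPKM in the control, and with the length trend removed it lay at -0.06 relative to the median gene. Gpc3, a glypican that restrains growth, was at 366 FPKM in the mutant and 428 FPKM in the control. Of 15 genes that keep or erase imprints, 13 passed the filter, with a median of -0.04. Among them Trim28, a corepressor at imprinted regions, was at 251 FPKM in the mutant and 308 FPKM in the control, and the methylcytosine oxidase Tet1 at 4.81 FPKM in the mutant and 2.45 FPKM in the control. Tet1 lay 0.88 above the median gene, and 0.26 above it with the length trend removed.

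Marker genes of other cells also differed between the libraries. The summed level of 10 erythroid markers was 7318 FPKM in the mutant and 25906 FPKM in the control, and all 10 were lower. All 12 endothelial markers were lower (11 of them relative to the median gene), with sums of 82.4 FPKM in the mutant and 121 FPKM in the control. The skeletal muscle markers had sums of 16.1 FPKM in the mutant and 49.8 FPKM in the control, with 8 of 12 over the filter and all 8 lower. The 10 epithelial markers summed to 200.3 FPKM in the mutant and 170.2 FPKM in the control, with 8 of 10 higher. Markers of mandibular mesenchyme, the labelled tissue, were present in both libraries, at 684 FPKM in the mutant and 719 FPKM in the control. Of these 10 markers, 6 were higher in the mutant and 4 lower. The 8 yolk sac and liver markers summed to 2.30 FPKM in the mutant and 5.70 FPKM in the control, and 1 passed the filter, with Afp listed at 0 in the mutant and at 1.89 FPKM in the control. Of 7 placental markers found, 4 were at 0 in both libraries. Their sum of 35.6 FPKM in the mutant and 26.6 FPKM in the control was nearly all Hand1, which jaw mesenchyme also expresses. The part of these cell types in the lower Igf2, H19 locus, Cdkn1c, Plagl1 and Dlk1 values was not tested.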

How the data were processed

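Mandibular prominence RNA was measured in 1 Kif3a mutant and 1 control library, grouped by the labels. The authors deposited FPKM per UCSC transcript, and the naming of the tables gives Cufflinks. Neither its version nor the aligner is given in the sources used here. A coverage signal is deposited beside it, per the file headers, and served only to approximate fragment numbers: coverage times length, divided by 153 bases per fragment in the mutant and 156 in the control. The submitters' processing notes name mm9, but of 45348 transcripts 72.3% shared a start or end with the same gene in GENCODE on GRCm38, so coordinates are given on that build. Starts matched after 1 was added (52.0%, against 4.65% as written). Of 59120 lines per library, 65 with displaced columns were left out. Of the others, 404 were marked LOWDATA in the control and 6 FAIL in the mutant; every member's rows were marked OK.

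FPKM was summed per gene symbol, and genes averaging at least 1 were compared as log2((mutant + 1) / (control + 1)), which understates differences of low genes. The length trend was removed with lowess (span 0.3). Counting intervals and length correction were tested on simulated data. Promoter starts were matched to transcripts within 20 bases. Members and lists were chosen with earlier results of these data known. Named genes were the members, Kif3a and, of each list (imprinted neighbours of each cluster, other imprinted genes, the imprinted network, IGF2 partners, imprint maintenance, CDK inhibitors and marker lists), the most abundant gene and up to 4 with the largest differences; the text gives a selection of these. Leaving Mrpl23 out of the IGF2 partners was chosen after seeing the data. AK145379, AK204943, Igf2as, Airn, Peg3as and Afp are named for their place on a locus or after their values were seen. Alternatives were pseudocounts of 0.1 and 5, filters, scalings, the length trend, the most abundant transcript alone and, chosen after seeing the data, H19 summed with AK145379. Python 3.11.15, pandas 2.3.3, scipy 1.17.1 and statsmodels 0.14.6 were used.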

Additional observations from a re-analysis of the deposited data

How the results depend on the processing

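The median log2 ratio of the 10 members, -0.11 as deposited, was 0.018 after centring on the median gene, 0.023 after scaling to the 75th percentile, 0.47 after scaling to a common FPKM sum and 0.15 after the same without transcripts under 200 bases, all of which shift the genes nearly alike. It was -0.18 with the length trend removed, -0.15 with the most abundant transcript alone and -0.37 with H19 summed with AK145379. Scaling to a common FPKM sum gave 4 members at least 1.5-fold higher and 0 at least 1.5-fold lower, and leaving out transcripts under 200 bases gave 1 lower. With the length trend removed 1 member, Plagl1, was at least 2-fold lower. Of 120 member values under alternatives, 67 stayed within their counting interval, 53 moved and 0 of those past 1.5-fold changed sign. Many of the 67 could not move. The filters and the restriction to rows marked OK leave every member's log2 ratio as it was, and summing H19 with AK145379 changes only H19. The count is therefore no measure of stability. Relative to the median gene Mest (0.01, with the common FPKM sum) and Grb10 (-0.04, with no filter and with the length trend removed) changed sign, and the other 8 members did not in the 12 settings that keep the row named H19 apart. Centring cannot change these signs, and the scalings can hardly do so. With H19 summed with AK145379, H19 turned to -0.59, against 0.30 for its own row. Over all genes, 338 were at least 1.5-fold higher and 683 lower as deposited, 105 and 247 with a pseudocount of 5, 504 and 1047 with 0.1, 178 and 379 among genes averaging at least 5 FPKM, 509 and 428 after 75th percentile scaling, and 842 and 304 with the common sum without short transcripts. No paired analysis was possible because each group has 1 library. For the same reason no library could be left out, and depth limits the minor transcripts, such as the 3 control fragments of the 850-base Grb10 form.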

Other observations

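Genes listed as imprinted, outside the clusters of the members, lay on both sides of the median gene, more of them below it. Whether each is read from 1 parental copy in this tissue was not measured. Of 41 listed, 32 passed the filter, with a median log2 ratio of -0.25, 9 above 0 and 23 below, and relative to the median gene 12 were higher and 20 lower. At 1.5-fold or more, 2 were higher and 3 lower, against 2.76% and 5.57% of all genes, and the 3 lower ones are Ndn, Gnas and Dcn, described above. The 2 higher ones were Ube3a, a ubiquitin ligase, at 17.7 FPKM in the mutant and 10.9 FPKM in the control, and Zdbf2, at 7.08 FPKM in the mutant and 3.99 FPKM in the control. With the length trend removed, Zdbf2 lay 0.27 above the median gene, against 0.82 before. Near Mest, Plagl1 and Grb10, 7 neighbours passed the filter with a median of -0.14. Klf14, an imprinted zinc finger gene near Mest, was at 0.736 FPKM in the mutant and 2.50 FPKM in the control.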
